A study of Mus musculus with 4 samples.

Results

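The regions described here are 909 PRDM6 peaks that lay just upstream of a transcription start site (TSS), out of 13977 peaks in a list of PRDM6-bound sites of the mouse genome. They were chosen by position alone, as the peaks that the authors' annotation called promoter and placed 1 to 3000 bp upstream of the nearest TSS. The distance ran from the peak edge closest to the TSS, so peaks that overlapped the TSS itself were not among them.

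The cells were primary smooth muscle cells (SMCs) of the mouse outflow tract, the great vessels at the outlet of the heart. The study took them from late-gestation embryos that carried floxed Prdm6 alleles, and all libraries came from cells infected with a lentivirus that overexpressed FLAG-tagged PRDM6. Of the 4 samples, 2 were PRDM6 ChIP libraries, precipitated with an antibody against FLAG, and the other 2, Input, were made from the same kind of chromatin without precipitation. The study's text calls the precipitations both repeats on a single sample and independent replicates, so the replicates may share a culture. The assay recorded the tagged protein at forced levels and not the endogenous one. No control with an unrelated antibody or without the tag is named in the labels, and Input entered the peak list only as the background against which peaks were called.

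A promoter is the stretch around a TSS where general transcription factors and RNA polymerase assemble, and many promoters of widely used genes lie in CpG islands, stretches rich in G and C that keep their CpG dinucleotides. PRDM6 belongs to the PR domain family of zinc finger proteins, several of which modify histones or recruit enzymes that do, and it is expressed in SMCs. AP-1 factors are dimers of JUN and FOS family proteins that respond to serum, growth factors and stress. TEAD factors bind DNA as partners of YAP and TAZ, the coactivators controlled by the Hippo pathway.

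The sequences around the summits of 8 of these peaks are shown because the results below turn on their motifs or on their genes. The first 5 are among the peaks with the lowest irreproducible discovery rate (IDR), and Tpm1, Postn and Ccn1 are genes of smooth muscle, matrix and Hippo lists with a motif at the summit. Each runs from 100 bases before the summit to 100 bases after it, was read from the GRCm38 (mm10) genome and is written on the strand of the gene. Capitals mark AP-1 words (TGACTCA or TGAGTCA), TEAD words (AGGAATGC, AGGAATGT, GGGAATGC, GGGAATGT or their reverse complements) and the CArG box, the site of serum response factor.
Plekhf1 (chr7:38230401-38230601, minus strand): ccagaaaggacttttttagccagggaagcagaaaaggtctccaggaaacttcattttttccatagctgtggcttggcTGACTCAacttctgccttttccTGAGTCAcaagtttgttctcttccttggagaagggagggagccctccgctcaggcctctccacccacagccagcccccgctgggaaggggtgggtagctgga
Flacc1 (chr1:58698836-58699036, minus strand): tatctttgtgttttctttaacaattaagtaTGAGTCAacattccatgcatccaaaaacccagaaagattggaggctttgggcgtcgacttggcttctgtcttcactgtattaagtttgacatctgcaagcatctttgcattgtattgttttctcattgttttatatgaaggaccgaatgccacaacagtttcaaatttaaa
Ccnd1 (chr7:144941680-144941880, minus strand): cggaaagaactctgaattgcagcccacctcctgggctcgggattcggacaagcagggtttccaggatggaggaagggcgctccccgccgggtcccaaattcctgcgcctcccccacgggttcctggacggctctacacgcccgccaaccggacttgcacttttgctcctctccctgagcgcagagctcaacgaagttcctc
Anxa1 (chr19:20393691-20393891, minus strand): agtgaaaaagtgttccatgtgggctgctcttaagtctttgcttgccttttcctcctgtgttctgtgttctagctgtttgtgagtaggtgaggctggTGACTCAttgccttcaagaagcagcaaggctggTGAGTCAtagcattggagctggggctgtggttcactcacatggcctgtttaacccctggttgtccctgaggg
Tg (chr15:66732686-66732886, plus strand): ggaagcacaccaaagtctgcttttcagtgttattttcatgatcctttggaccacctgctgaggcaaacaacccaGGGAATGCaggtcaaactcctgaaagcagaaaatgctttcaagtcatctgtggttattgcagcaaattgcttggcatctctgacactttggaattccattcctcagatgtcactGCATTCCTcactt
Tpm1 (chr9:67045484-67045684, minus strand): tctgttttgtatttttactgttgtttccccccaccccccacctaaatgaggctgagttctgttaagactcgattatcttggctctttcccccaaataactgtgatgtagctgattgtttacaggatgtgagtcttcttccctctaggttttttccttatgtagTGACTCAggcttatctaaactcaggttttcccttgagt
Postn (chr3:54360013-54360213, plus strand): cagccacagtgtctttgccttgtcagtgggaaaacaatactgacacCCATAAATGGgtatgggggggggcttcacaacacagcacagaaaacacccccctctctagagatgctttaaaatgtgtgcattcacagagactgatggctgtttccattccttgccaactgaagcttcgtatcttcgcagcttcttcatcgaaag
Ccn1 (chr3:145651871-145652071, minus strand): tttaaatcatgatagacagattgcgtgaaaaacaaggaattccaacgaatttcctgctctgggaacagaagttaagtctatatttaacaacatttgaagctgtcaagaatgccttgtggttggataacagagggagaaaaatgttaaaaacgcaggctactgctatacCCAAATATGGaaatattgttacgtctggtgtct

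The Plekhf1 and Anxa1 windows held 2 AP-1 words each, and the Tg window held 2 TEAD words. In Plekhf1 the AP-1 words began at -23 and -1 bp from the summit, and in Anxa1 at -4 and 29 bp. Postn and Ccn1 carried a CArG box, and the Ccnd1 window held none of these words. These words are matches of letters and do not show that a factor was bound.

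The counts of upstream peaks were highest next to the TSS. Of the 909 peaks, 523 (57.5%, 95% Wilson interval 54.3% to 60.7%) began within 1000 bp of it, 218 (24.0%) between 1000 and 2000 bp and 168 (18.5%) farther out. The first 250 bp alone held 230 peaks and the last 250 bp held 27. The nearest peaks began 1 bp from the TSS of Adamts10, which encodes a secreted metalloprotease, and 2 bp from those of Limch1 and Heatr5a. On the downstream side 53.4% of 1139 promoter peaks lay within 1000 bp. The peaks were chosen by this distance, to the nearest TSS, so these shares are a description without a test.

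**Figure D1:**
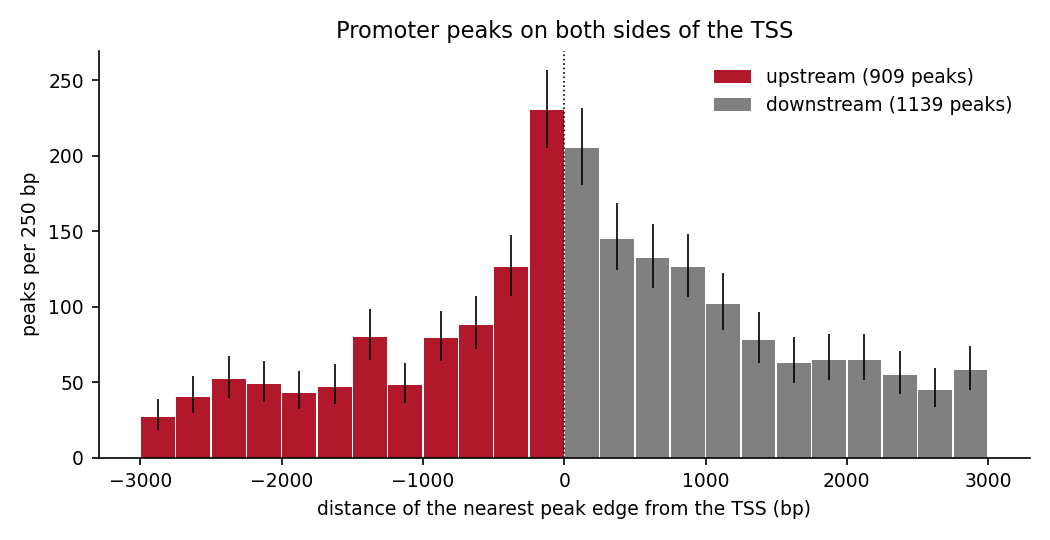
Number of promoter peaks per 250 bp (vertical axis) against the distance of the nearest peak edge from the TSS in bp (horizontal axis), with 909 upstream peaks in red and 1139 downstream peaks in grey. Bars are counts and lines are 95% Wilson intervals of each bin's share of its side; the upstream count falls from 230 in the first 250 bp to 27 in the last.

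The peaks belonged to 785 genes and 810 start sites on 20 chromosomes. Of these genes 678 had 1 upstream promoter peak, 92 had 2, 13 had 3 and 2 had 4. Of the 909 peaks, 190 shared their start site with another, so the peaks are not independent of each other. On chromosome 11 the upstream promoter peaks made up 11.02% of all peaks and on chromosome 13 they made up 4.73%, the highest and the lowest share.

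An upstream peak was often not upstream of its gene. Only 548 peaks (60.3%, 57.1% to 63.4%) lay outside the gene beyond its outermost start, and 352 (38.7%, 35.6% to 41.9%) lay inside the span of the gene, upstream of an internal start site. For 9 peaks the gene could not be matched. By the feature under the summit, intergenic and intronic peaks were equal in number, 415 each, while 59 lay in exons of noncoding transcripts, 13 in untranslated regions (UTRs) and 7 in coding exons. The start site assigned to the peak was that of a protein-coding transcript for 609 peaks (67.0%), of a retained-intron transcript for 11.1%, of another processed transcript for 93, of a lincRNA for 42 and of a miRNA hairpin for 19.

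The body of another gene was overlapped by 214 of the peaks (23.5%, 20.9% to 26.4%). Among downstream promoter peaks this share was 14.4% (164 of 1139). Within 1 kb upstream of the assigned TSS, another gene started in the opposite direction for 47 peaks (5.17%), and for 124 downstream peaks (10.9%). Since each peak was assigned to its nearest TSS, and upstream peaks more often lie outside their own gene, these shares are a description only. Of the 785 genes, 175 (22.3%) also had a peak over the TSS, 174 (22.2%) a downstream promoter peak and 188 (23.9%) a peak 3 to 20 kb upstream. For 282 genes (35.9%) the upstream promoter peaks were their only peaks.

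Most of the peaks were weak. The −log10 p-value of a peak, the smaller value of both replicates, had a median of 5.42 (quartiles 4.39 and 6.61) and ran from 3.05 to 24.3. The median over all 13977 peaks was 5.53. In the first-listed replicate the median was 6.21 and the highest value 24.3, and in the second-listed replicate they were 6.61 and 36.3. The second-listed replicate had the higher value at 462 of the 909 peaks, so neither replicate led. Across the 909 peaks the replicates' values had a Spearman correlation of 0.236, a description over peaks that share libraries. Between the replicates the summit shifted by 107 bp in the median. Where the background behind a p-value could be recovered, in 528 peaks of the first-listed and 600 of the second-listed replicate, the median height was 14 and 13 fragments. The total depth of the libraries is unknown.

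The IDR estimates from the ranks in both replicates how likely a peak is to be irreproducible. A global IDR of at most 0.05 was reached by 22 upstream promoter peaks (2.42%, 1.60% to 3.64%), beside 3.33% of all peaks in the list. The lowest score of the list, 48, was held by 406 of them (44.7%, 41.5% to 47.9%), beside 41.4% of all peaks. The 22 peaks belonged to 22 genes on 13 chromosomes, ran from 502 to 1952 bp in width with a median of 1222.5 bp, and began 91 to 2839 bp from the TSS. The other 887 had a median width of 528 bp. The IDR was made from the p-values, so the strength of the 22 peaks is a description.

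**Figure D2:**
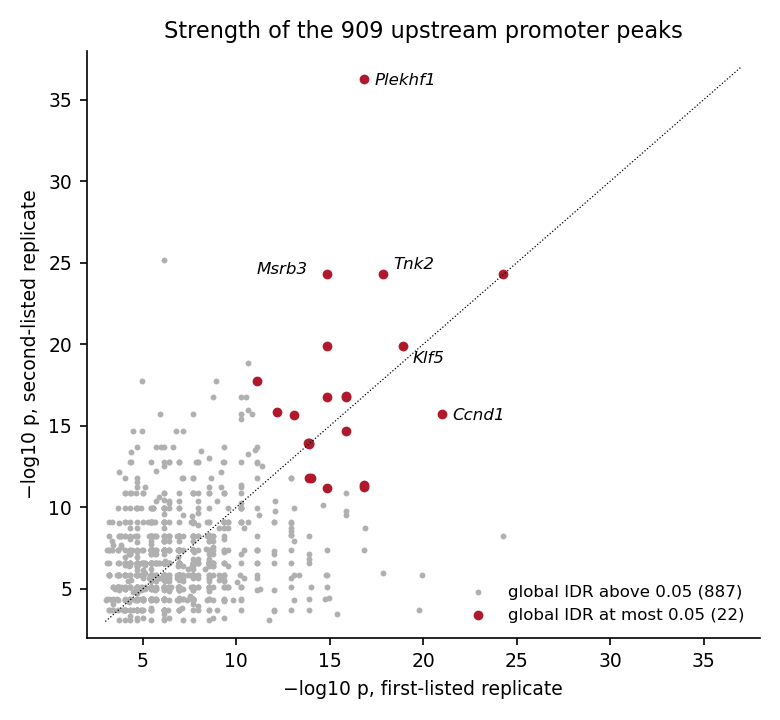
The −log10 p-value of each of the 909 upstream promoter peaks in the first-listed (horizontal axis) and the second-listed replicate (vertical axis). Red points are the 22 peaks whose global IDR did not exceed 0.05, grey points the other 887, and the dotted line marks equal values; Klf5 lies close to it at 18.9 and 19.9, while Plekhf1 lies far above it at 16.8 and 36.3.

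Of the 12 strongest upstream promoter peaks, 11 are described here. All pairs of values below are −log10 p-values, the first-listed replicate before the second-listed one. One of the strongest was at Klf5, a Krüppel-like transcription factor of proliferating SMCs. Its −log10 p was 18.9 in the first-listed and 19.9 in the second-listed replicate, with 27 fragments in each. A second Klf5 peak, 126 bp from the TSS, was far weaker, with 3.85 and 8.25. Tnk2, a nonreceptor tyrosine kinase, had its peak at chr16:32639917-32641226, 2648 bp upstream, with 17.9 and 24.3.

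Plekhf1, a phosphoinositide-binding protein of endosomes, had the widest gap between the replicates among these 12. Its peak at chr7:38230082-38231332, 2066 bp upstream, reached 16.8 in the first-listed and 36.3 in the second-listed replicate, with 25 and 41 fragments. Flacc1 (chr1:58698112-58699670, 2123 bp upstream) had 15.8 and 16.8. Dnai3, a dynein intermediate chain of cilia (chr3:146110511-146111869, 2381 bp upstream), had 15.8 and 16.7.

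At Ccnd1, which encodes cyclin D1 of the G1 phase, the order of the replicates was turned. Its peak at chr7:144941245-144942378 began 1320 bp before the start of a retained-intron transcript, outside the gene, with 21.002 in the first-listed and 15.7 in the second-listed replicate. Msrb3, a methionine sulfoxide reductase, was the only one of the 12 within 100 bp of a start site. Its peak at chr10:120850559-120851490 lay in an intron, 91 bp from an internal start, with 14.9 and 24.3. 

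The last 4 of the 12 were Plekha5, Khdrbs1, Anxa1 and Actn4. Plekha5 (chr6:140514374-140515146) had 14.9 and 19.9, and its peak lay in an intron 1278 bp before an internal start. Khdrbs1, the RNA-binding protein SAM68 (chr4:129742920-129743579, 617 bp upstream), had 14.9 and 16.7. Anxa1, a calcium-dependent membrane-binding protein (chr19:20393020-20394971, 2076 bp upstream), had 15.8 and 14.7 and was the widest of the 22 at 1952 bp. Actn4, an actin-crosslinking alpha-actinin (chr7:28951933-28953561), had 13.9 and 14.0 in an intron 2174 bp before an internal start.

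The remaining 10 were at Tg, Elobl, Senp1, Samd4, Apbb2, Btg4, Puf60, Trpm6, Inava and Fam71f1, with −log10 p-values from 11.1 to 13.9. Among all 22, an AP-1 word was found at 5 summits and a TEAD word at 3, and 7 held at least one of these. The AP-1 share was 22.7% of the 22, beside 10.0% of the other 887 and 14.3% of all 13977 peaks. TEAD words lay at 66 of the other 887 and at 7.45% of all peaks. These differences were not tested. In 13 of the 22 the peak lay upstream of the whole gene and in 9 inside its span. The second-listed replicate had the higher value in 14 of 22.

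Motifs were searched on both strands within 100 bp of each summit and in 2 windows centred 1000 bp away that held as many positions together. AP-1 words lay at 94 of the 909 summits (10.3%, 8.53% to 12.5%) while 34 had one in the flanks (3.74%, 2.69% to 5.18%), which gave a ratio of 2.76 (exact McNemar test, two-sided, adjusted p = 1.46e-07 over 7 motifs). This and the other tests count peaks of a single matched list, which are not replicates of a condition, so their p-values cover counting error only. The study had already found AP-1 and TEAD consensus sequences, and a TTTC/AT sequence, to be overrepresented in its PRDM6 peaks. The 909 peaks are part of those, so the AP-1 and TEAD tests are no independent support for that finding. Over all 13977 peaks the share at the summit was 14.3%. TEAD words lay at 69 summits (7.59%, 6.04% to 9.50%) while 30 had one in the flanks (3.30%), giving a ratio of 2.30 (adjusted p = 0.000226 by the same exact test), and at 7.45% of all summits. Both kinds of word occurred together at 11 summits. The AP-1 and TEAD ratios stayed above 1 and past the threshold in the 5 alternatives tried, where AP-1 ran from 2.19 (50 bp window) to 4.09 (second-listed replicate alone) and TEAD from 1.66 (200 bp window) to 3.5 (50 bp window).

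The profile of positions showed a broader rise for AP-1 than for TEAD. In the 50 bp before and after the summit 26 peaks each held an AP-1 word, beside a median of 11.5 peaks in the 36 bins of 50 bp that lay beyond 100 bp, where the highest bin still held 31. For TEAD the same bins held 21 and 23 peaks, beside a median of 8 and a highest value of 15. These profiles are descriptions with no test.

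**Figure D3:**
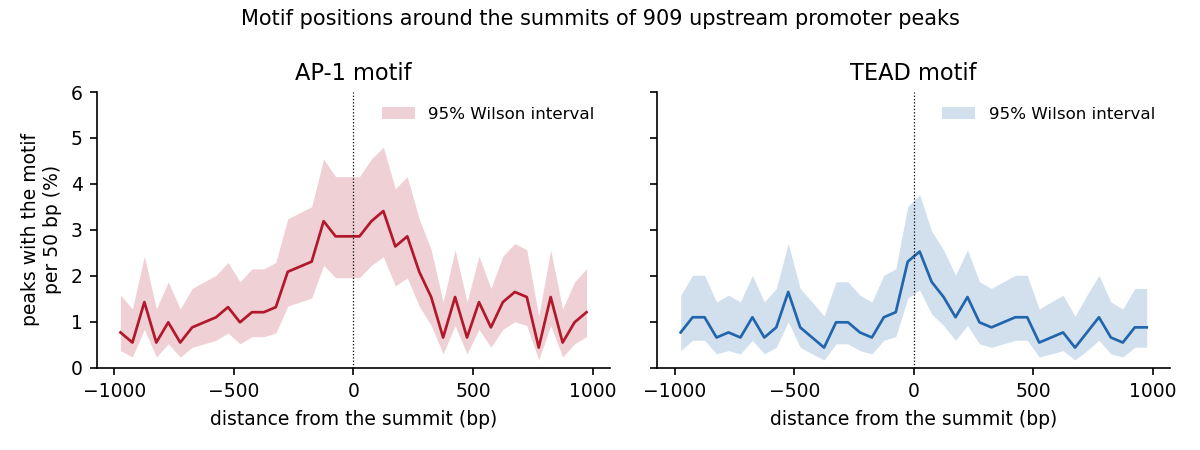
Share of the 909 upstream promoter peaks with an AP-1 word (left) or a TEAD word (right) in each 50 bp bin (vertical axis, percent) against the distance from the summit in bp (horizontal axis), with 95% Wilson intervals shaded. The line for TEAD rises in the bins next to the summit, with 21 and 23 peaks, and that for AP-1 over a wider stretch, with 26 peaks in each of those bins.

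No other motif passed the test in the direction of the summits. TTTCAT or TTTCCT lay at 347 summits (38.2%) and in 329 flanks (36.2%), a ratio of 1.05 (exact McNemar test, adjusted p = 0.576), beside 43.1% of all summits. The CArG box lay at 13 summits (1.43%) and 17 flanks, a ratio of 0.765 (adjusted p = 0.585, exact), beside 1.41% of all summits. The CArG ratio rose above 1 in the second-listed replicate alone (1.33), in 200 bp windows (1.16) and with flanks 3000 bp away (1.86). It stayed below 1 in the first-listed replicate alone (0.714) and in 50 bp windows (0.833), and it passed in none of these. TGGGAA, the core bound by the Notch effector RBPJ, lay at 173 summits and 158 flanks, a ratio of 1.09 (adjusted p = 0.576, exact), beside 19.9% of all summits. GGGCGG, the GC box of SP factors, lay at 121 summits (13.3%) and 131 flanks, a ratio of 0.924 (adjusted p = 0.585, exact), beside 6.86% of all summits. CCAAT lay at fewer summits than flanks, 178 (19.6%) against 226 (24.9%), a ratio of 0.788 (adjusted p = 0.0218, exact), beside 22.1% of all summits. With the summits of the second-listed replicate alone the CCAAT ratio was 0.880 and its call was lost, as it was in the 50 bp window at a ratio of 0.815. The GC box turned with the place of the flanks, since 3000 bp away they held it less often than the summits, a ratio of 1.89 (adjusted p = 2.9e-05, exact). In windows of 200 bp TTTCAT or TTTCCT passed with a ratio of 1.11.

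The upstream peaks were compared with 3 neighbouring sets, 928 peaks over the TSS, 1139 promoter peaks up to 3 kb downstream and 1782 peaks 3 to 20 kb upstream. In base composition they stood between the TSS and the region farther out. The GC content within 100 bp of the summit had a median of 46.3%, beside 56.7% over the TSS, 46.8% downstream and 43.8% at 3 to 20 kb. The ratio of CpG observed over expected had a median of 0.288, beside 0.644, 0.329 and 0.183 in the same order. The sets were defined by distance from the TSS, and no unbound positions at the same distances were measured. Whether the differences in composition and motifs below go beyond those of such positions was not tested.

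Against peaks over the TSS, the share of upstream peaks above the joint median of GC content differed by -34.2 percentage points (32.5% against 66.7%; exact median test, two-sided, adjusted p = 4.5e-49). Against peaks 3 to 20 kb upstream, the difference was 12.5 points in the other direction (8.47 to 16.4; adjusted p = 1.68e-09, exact). Against downstream peaks GC content differed by -2.27 points (-6.62 to 2.08; adjusted p = 0.328, exact), and passed in the 50 bp window at -5.82 points. The CpG ratio was lower than downstream, by a difference of -6.14 points (-10.5 to -1.78; adjusted p = 0.00585, exact), but this call was lost when start sites inside genes were left out, where the difference was 0.0439 points, and in the 50 bp window, at -4.08 points.

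AP-1 words followed the opposite order. They were more frequent at the upstream peaks than at peaks over the TSS (6.90%), by 3.44 percentage points (0.878 to 6.04; Fisher's exact test, adjusted p = 0.0195 over 6 comparisons). They were less frequent than at peaks 3 to 20 kb upstream (15.8%), by a difference of -5.43 points (-7.96 to -2.74; adjusted p = 0.000598, exact). Against downstream peaks (7.90%) the difference was 2.44 points (-0.0559 to 5.02; adjusted p = 0.0927, exact). The difference from peaks over the TSS was lost in the 50 bp window, where it was 1.18 points, and without start sites inside genes, where it was 2.96 points. The difference from downstream peaks passed in the 200 bp window, at 5.05 points.

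TEAD words were also more frequent than over the TSS (4.20%), by 3.39 points (1.24 to 5.60; adjusted p = 0.0062, exact). This call was lost with start sites at the 5′ end of genes only, where the difference was 1.45 points. Against downstream peaks (6.85%) and peaks 3 to 20 kb upstream (7.52%) the differences were 0.743 points (-1.50 to 3.06; adjusted p = 0.656, exact) and 0.0711 points (-1.96 to 2.29; adjusted p = 0.939, exact). The last turned to -3.53 points in the 200 bp window (adjusted p = 0.0167, exact), where the difference from downstream peaks was -1.16 points. Without start sites inside genes the differences from downstream peaks and from peaks 3 to 20 kb upstream were -1.19 and -1.86 points. With 1 peak per gene they were 0.651 and 0.0387 points. Base composition differed between the sets along with the motif shares, and its part in them was not tested.

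**Figure D4:**
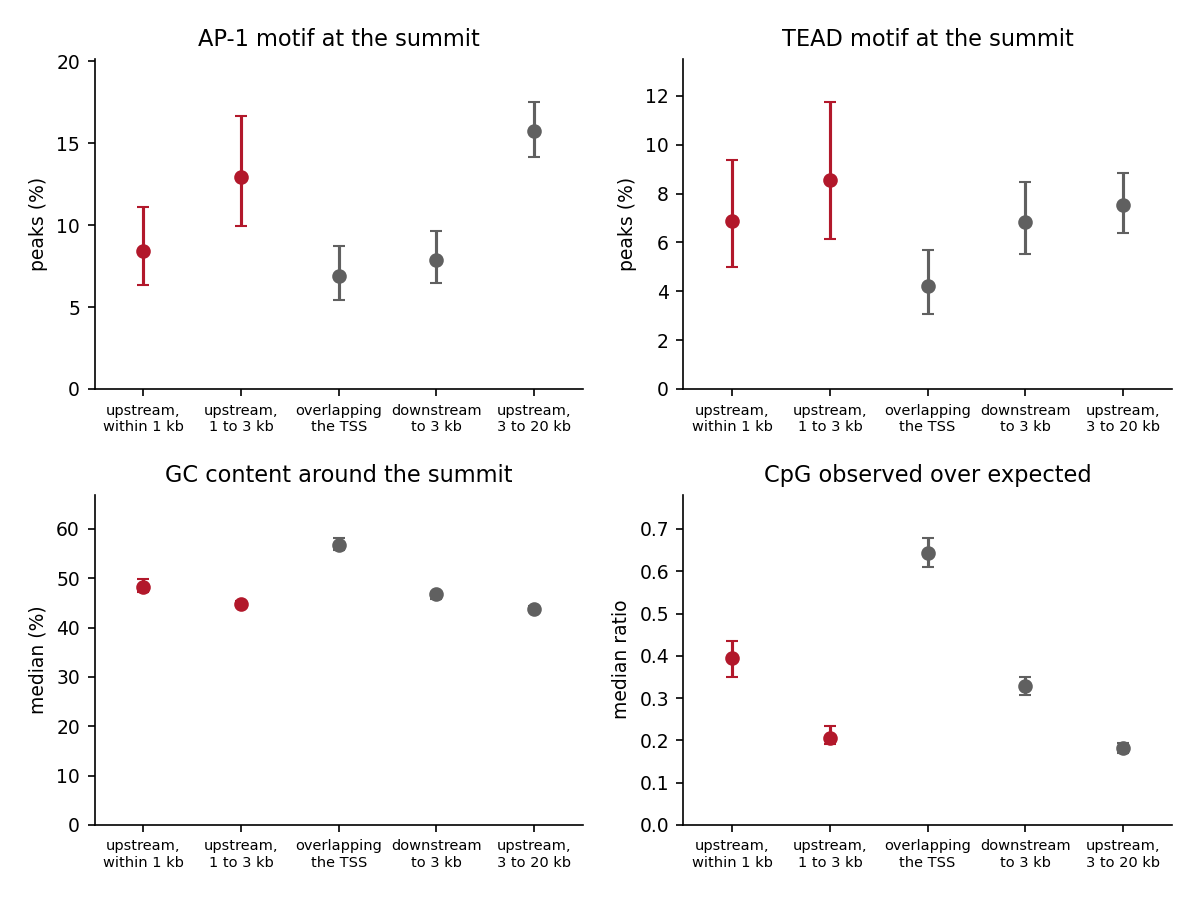
Shares of peaks with an AP-1 or TEAD word within 100 bp of the summit (top, percent with 95% Wilson intervals) and medians of GC content and of CpG observed over expected (bottom, with exact 95% intervals) in 5 sets of peaks along the horizontal axis. Red points are the 523 upstream promoter peaks within 1 kb and the 386 farther out, grey points the sets compared with them; the AP-1 share runs from 6.90% over the TSS to 15.8% at 3 to 20 kb, and the CpG ratio from 0.644 to 0.183.

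Tests of strength, width and IDR are given against downstream peaks only, with p-values adjusted over all 3 sets, since a wide peak close to the TSS overlaps it and so drops out of the upstream and the downstream promoter peaks alike, which is not so for the other sets. Above the joint median of strength lay 52.7% of the upstream and 47.7% of downstream peaks, a difference of 5.02 points (0.664 to 9.35; exact median test, adjusted p = 0.0392). This call was lost in the first-listed replicate alone (2.71 points), within 1 kb (4.61), with 1 peak per gene (4.33) and without start sites inside genes (4.18). As a description, the difference in strength was -5.76 points against peaks 3 to 20 kb upstream and 0.00771 points against peaks over the TSS.

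The share with a global IDR of at most 0.05 was 2.42% upstream, 2.69% over the TSS, 1.93% downstream and 3.98% at 3 to 20 kb. Against downstream peaks the difference was 0.489 points (-0.784 to 1.87; Fisher's exact test, adjusted p = 0.673). The peaks were 543 bp wide in the median, beside 705 bp over the TSS, 567 bp downstream and 586.5 bp at 3 to 20 kb. The share above the joint median of width differed by -2.08 points from downstream peaks (exact median test, adjusted p = 0.374).

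Distance from the TSS also ordered the upstream peaks among themselves. The 523 peaks within 1 kb were richer in CpG than the 386 farther out, with medians of 0.395 and 0.205 (exact median test, adjusted p = 2.4e-16 over 8 measures). Their GC content was 48.3% against 44.8% (adjusted p = 6.4e-08, exact), and 93 (17.8%) against 28 (7.25%) held a GC box (adjusted p = 7.3e-06, exact). AP-1 words showed the reverse, at 44 near peaks (8.41%) and 50 far ones (12.95%), a difference of -4.54 points (-8.80 to -0.518; adjusted p = 0.0372, exact). TEAD words lay at 6.88% and 8.55% (adjusted p = 0.376, exact). Here too no unbound positions at the same distances were measured, so whether these differences go beyond those of such positions was not tested.

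A global IDR of at most 0.05 was held by 7 near peaks (1.34%) and 15 far ones (3.89%). The median width was 503 bp near and 619.5 bp far, and 44.7% of the near peaks and 51.8% of the far ones lay above the joint median of strength. A wide peak close to the TSS overlaps it and was not among the 909, and width, strength and IDR are linked, so these values are a description without a test.

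The 352 peaks inside the span of their gene were compared with the 548 upstream of it. Those inside held a TEAD word more often, at 36 (10.2%) against 31 (5.66%), a difference of 4.57 points (1.01 to 8.53; Fisher's exact test, adjusted p = 0.0263 over 8 measures). They held a GC box less often, at 28 (7.95%) against 92 (16.8%; adjusted p = 0.000688, exact), and their CpG ratio was lower, with medians of 0.240 and 0.329 (adjusted p = 0.000688, exact). AP-1 words lay at 11.1% and 9.85% (adjusted p = 0.768, exact), and strength, width and IDR did not pass the test either. These comparisons within the upstream peaks were chosen after the data were seen.

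Genes of 20 lists were then looked up, 467 genes in all. Of these 77 (16.5%) had an upstream promoter peak, 91 peaks together, whereas 3.2% of 21924 protein-coding genes had one. Counting peaks of any kind, 37 of 49 matrix, 28 of 33 PDGF, FGF and EGF and 6 of 19 AP-1 genes had one. Of 5 cardiomyocyte markers 0 had one. The share of all protein-coding genes with a peak of any kind was not counted. The higher share of list genes was therefore not shown to be particular to upstream promoter peaks. The lists were drawn up for this tissue with earlier results known and were not matched to other genes: list genes had a median of 4 annotated start sites, all protein-coding genes 3, and genes with an upstream promoter peak 5. No set test was made, and the part of the number of start sites was not tested. The 91 peaks were of ordinary strength, with a median −log10 p of 5.42, and 46 of them had the lowest score. An AP-1 word lay at 3 of the 91 summits and a TEAD word at 4, beside 10.3% and 7.59% of all 909, a difference that was not tested.

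**Figure D5:**
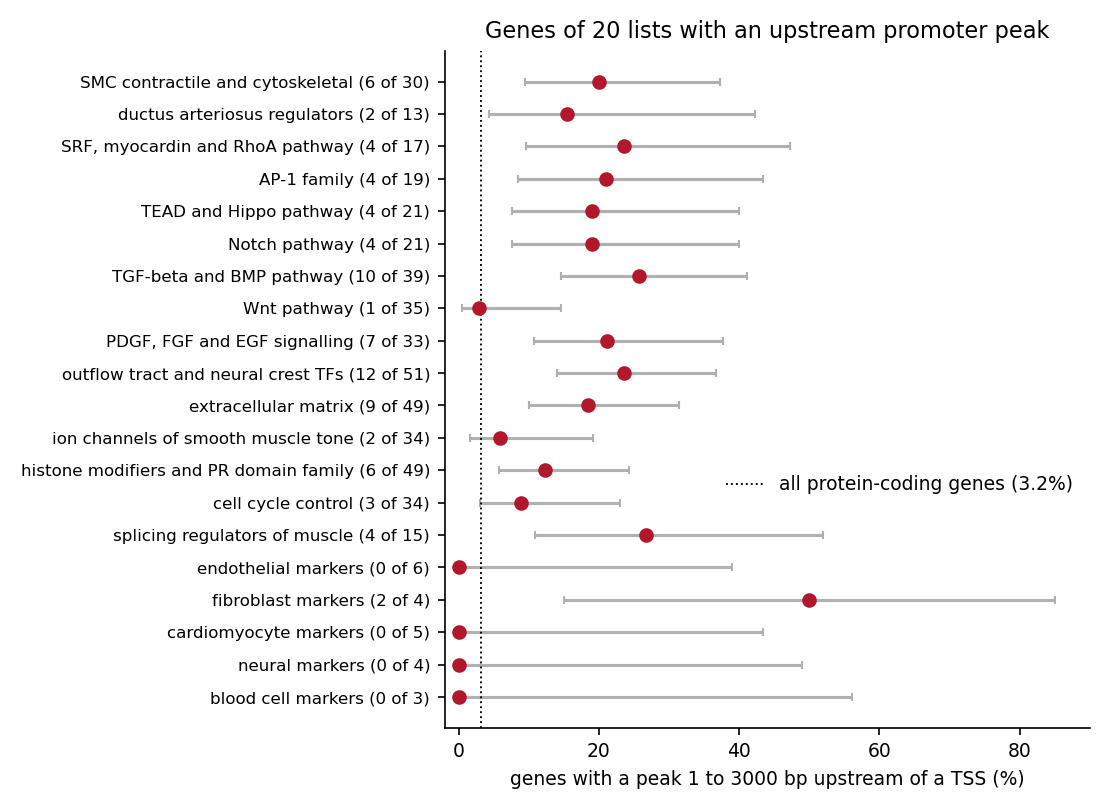
Share of the genes of each of 20 lists with an upstream promoter peak (horizontal axis, percent), with 95% Wilson intervals as lines and the counts beside each list's name. The dotted line is the share over all protein-coding genes, 3.2%; TGF-beta and BMP genes reach 25.6% (10 of 39) and Wnt genes 2.86% (1 of 35).

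Of 30 genes of the contractile apparatus and cytoskeleton of SMCs, 6 had an upstream promoter peak. At Cald1, caldesmon, which restrains actin and myosin, the peak lay in an intron 1648 bp before an internal start, with −log10 p-values of 11.2 in the first-listed and 9.54 in the second-listed replicate. At Mylk, the myosin light chain kinase that starts contraction, the peak lay inside the gene 2890 bp before an internal start, with 6.92 and 6.61. Filip1l had 6.42 and 7.42, and Itgb1, Tpm1 and Cnn2 had weaker peaks at the lowest score. The other 24 genes of the list, among them Acta2 and Myh11, had no upstream promoter peak. Counting peaks of any kind, 16 of the 30 genes of this list had one. The study found few PRDM6 sites in SMC marker genes, but a strong peak at an intronic enhancer of Acta2. The lack of an upstream promoter peak therefore does not mean that a gene had no peak.

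Of 13 ductus arteriosus regulators, 2 had one: Jag1, a Notch ligand, 250 bp upstream with 5.42 and 8.25, and Ptger4, the prostaglandin E receptor EP4, 81 bp before an internal start in a coding exon with 4.32 and 3.09. The Ptger4 value of 3.09 was close to the lowest of all 909 upstream peaks, 3.05, and 1 of the 2 peaks had the lowest score. The study named several genes of this list for peaks in these samples, so the count is not independent. In the pathway of serum response factor, myocardin and RhoA 4 of 17 genes had a peak, and the kinase genes Rock1 and Rock2 were among them. Rock2 (237 bp upstream) had 5.56 and 8.25, Rock1 (954 bp) 5.42 and 8.25, Kdm3a 8.52 and 5.84, and Mrtfa, the myocardin-related factor of the pathway, 11.7 and 3.09. At Mrtfa the replicates stood far apart.

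The factors whose motifs lay at the summits had peaks at their own genes in some cases. Of 19 AP-1 family genes 4 had one: Atf3 with 5.42 and 7.42, Jun with 5.42 and 5.10, Maf with 5.00 and 4.39, and Fosl2 with 4.33 and 3.73. Of 21 genes of TEAD factors and the Hippo pathway 4 had one. Vgll3, a TEAD cofactor, had a peak 60 bp before an internal start with 9.19 and 12.2, and Ccn1, a matricellular target of YAP, had one 1373 bp upstream with 7.17 and 14.7. Tead1 itself had 5.42 and 5.84, and the kinase gene Lats2 had 3.75 and 9.03 with a TEAD word at its summit. All 8 of these peaks had a global IDR above 0.05.

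Among signalling pathways, 10 of 39 TGF-beta and BMP genes had an upstream promoter peak, 13 peaks together. The BMP target Id3 had one 2381 bp upstream with 9.37 and 8.25, and the secreted inhibitor follistatin, Fst, had one 202 bp upstream with 8.52 and 8.25. Among receptors, Tgfbr1 (258 bp) had 8.52 and 7.92, and Bmpr2, Tgfbr3 and Bmpr1a also had peaks. Id2, another BMP target, had 3 peaks, 670, 1037 and 2227 bp upstream, with smaller values of 5.42, 5.00 and 6.15.

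Of 21 Notch genes 4 had one, led by Hes1, a transcriptional repressor induced by Notch, with 8.75 and 16.7 at 584 bp. Jag1, Notch2 and Maml2 had the others. Of 33 genes of PDGF, FGF and EGF signalling 7 had one, 12 peaks together. Pdgfrb, the PDGF receptor of mural cells, had its peak 17 bp upstream with 7.17 and 9.54, and the feedback inhibitors Dusp4, Dusp6, Spry2 and Spred1 had 2 or 3 peaks each. By the smaller value the highest of these were 2 peaks of Dusp4, one 2513 bp upstream with 6.92 and 9.10 and an AP-1 word at the summit, the other 155 bp upstream with 6.92 and 8.25. The Wnt list had a single one of 35, at the receptor gene Fzd2 with 5.91 and 15.7, a share no higher than that of all protein-coding genes. A peak of any kind was assigned to 19 of the 35 Wnt genes.

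Transcription factors of the outflow tract and neural crest had a peak in 12 of 51 cases. After Klf5, the highest was Snai2, a factor of neural crest migration, 151 bp upstream with 7.87 and 12.8. Sox11 (335 bp), Klf4 (628 bp), Nr2f2 and Mef2c each reached a smaller value of 7.71, and of these Mef2c (270 bp before an internal start) had 7.71 and 8.25. Among 49 genes of the extracellular matrix 9 had one. Emilin1, an elastic fibre glycoprotein, had its peak 8 bp upstream with 10.2 and 11.4, Postn had a peak at 786 bp with 7.71 and 7.92 and a CArG box, and Col1a1 had one at 1905 bp with 12.03 and 7.31.

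Of 34 ion channel genes of smooth muscle tone 2 had a peak. Itpr1, a calcium release channel, had 2, and the stronger, in an intron 675 bp before an internal start, reached 15.8 and 10.9 with a global IDR of 0.0501, just outside the limit. Trpm4 had 10.2 and 7.14. Of 34 cell cycle genes 3 had one, Ccnd1, Myc (817 bp, 7.95 and 10.9) and Cdk6. Of 49 histone modifiers and PR domain genes 6 had one, among them the PR domain genes Mecom with 9.57 and 7.42 and Prdm1 with 5.14 and 5.95, and the demethylase gene Kdm4c with 6.42 and 8.25. Of 15 regulators of splicing in muscle 4 had one, Tra2b, Celf2, Mbnl1 and Srsf3, all with smaller values of 5.84 or less.

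Markers of other cell types that such a culture could hold were looked up in the same way, although binding does not measure a cell type. None of 6 endothelial, 5 cardiomyocyte, 4 neural or 3 blood cell markers had an upstream promoter peak, which beside the 3.2% of all protein-coding genes says little for so few genes, and 3 endothelial and 1 blood cell marker had a peak elsewhere. Of 4 fibroblast markers Pdgfra (19 bp before an internal start, 4.71 and 6.39) and Dpt (4.71 and 7.25) had one, both at the lowest score. All 4 fibroblast markers had a peak of some kind.

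A few genes gathered several of these peaks. Kat6b, a histone acetyltransferase, had 4 before a single internal start, at 455, 1202, 2149 and 2999 bp, with smaller values from 4.95 to 7.17. Aopep, an aminopeptidase, had 4 before 3 start sites, with values from 3.21 to 7.71. Dlg1, a scaffold protein of cell junctions, had 3, and the middle one (10.9 and 15.7) had a global IDR of 0.0661. Csgalnact2, an enzyme of chondroitin sulfate synthesis, Mir100hg, a host transcript of microRNAs, and Abca4 had 3 each. Of the 13 genes with 3 peaks, these 4 had the highest −log10 p-values, Abca4 in a tie with Angptl4. The 20 peaks of the 6 genes lay inside the span of the gene, whereas the 3 of Dusp4 and the 3 of Id2 lay upstream of it. A TEAD word lay at a summit of Csgalnact2 and of Mir100hg, and AP-1 words lay at 2 summits of Abca4.

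Start sites of 14 miRNA hairpins carried 19 of the peaks, a group chosen after its values were seen. For these the annotated start is that of the hairpin and not of its primary transcript. Most of the 19 summits lay in an intron or exon of another annotated transcript, those of Mir21a in a UTR, and few were intergenic. Mir30a had the highest value, 15.8 and 9.54 at 61 bp, and Mir30a, Mir214, Mir193b, Mir125b-2 and Mir21a had 2 peaks each. None of the 19 reached a global IDR of 0.05 or less, and their median −log10 p was 5.67. A mature RefSeq sequence (GRCm38.p6) of 5 of them is shown for identity, with the seed, bases 2 to 8, in capitals.
miR-30a-5p: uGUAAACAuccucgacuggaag
miR-214-3p: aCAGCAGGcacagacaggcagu
miR-193b-3p: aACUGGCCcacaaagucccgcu
miR-125b-5p: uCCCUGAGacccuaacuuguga
miR-21a-5p: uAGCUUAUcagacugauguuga

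No seed is shared among these 5. The hairpins of Mir22 (7.71 and 6.61 at 484 bp), Mir30d (5.97 and 13.7 at 1047 bp), Mir10a and Mir181a-2 had 1 peak each. Mir21a had the weakest pair of peaks, with 3.21 and 9.10 at 41 bp and 4.66 and 5.84 at 559 bp.

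At the outer limit, the peaks of Kat6b and Amot began 2999 bp from the TSS and were included. The nearest left out were at Cfap54, 3004 bp upstream with 3.41 and 4.39, and at 1700012B07Rik, 3011 bp upstream with 16.8 and 14.7. The summit lay beyond 3000 bp in 48 of the 909 peaks (5.28%). When the distance was taken to the nearest TSS of any GENCODE transcript, 1238 peaks met the rule, of which 837 were among the 909 (92.1% of these and 67.6% of the 1238).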

How the data were processed

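PRDM6 ChIP and Input libraries, 2 of each, were sequenced in pairs of reads. The authors removed low-quality reads and adapters, aligned to mm10 with BWA at a mapping quality of at least 13, called peaks for each PRDM6 ChIP library over its Input with MACS2 at a p-value limit of 0.001, and matched the peaks of both replicates by IDR. The annotation tool and the versions of these tools are not given in the sources used here. The deposited list gave, for each matched peak, a −log10 p-value in each replicate and the smaller of both, a −log10 IDR and a scaled IDR score. The deposited columns for signal and q-value held a placeholder, so no fold enrichment was used, and the list held no read total and no value of Input. The deposited distances, widths and summit positions were used as given. Replicates are named by their order in the list, which does not say which library is which.

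Python 3.11.15 with NumPy 2.4.6, pandas 2.3.3, SciPy 1.17.1, pysam 0.24.0 and matplotlib 3.10.9 was used. Heights in fragments were read back where a p-value lay within 0.0002 of a tail of a Poisson distribution with a mean of 2.61 (first-listed) or 2.39 (second-listed). Sequence came from the GRCm38 genome of RefSeq, motif windows reached 100 bases to each side of the summit, and gene models came from GENCODE M21, which held the transcript of 906 of the 909 peaks. Numeric measures were compared with an exact median test, which is Fisher's exact test on the numbers above the joint median, and shares with Fisher's exact test. Summits and flanks were compared with an exact McNemar test. All tests were two-sided, with Benjamini-Hochberg adjustment within each family and a threshold of 0.05. The tests and the motif search were tested on simulated data. Intervals are 95% Wilson or Newcombe intervals for shares and exact order-statistic intervals for medians, and cover counting error only.

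The peaks, the gene lists and the motifs were chosen with earlier results of these data known. Named genes were the peaks whose global IDR was 0.05 or less (the 12 strongest in full, except items not reported here), up to 3 peaks per gene list by −log10 p, 6 genes with most peaks (ties ordered by −log10 p) and 2 peaks on each side of the outer limit. Further genes of a list, the peaks nearest the TSS and the miRNAs were named after their values were seen. Alternatives were other IDR limits, distance limits, windows and flanks, each replicate alone, 1 peak per gene, GENCODE start sites, distance from the summit and a larger overlap with the other gene. Leaving out start sites inside genes was added after the data were seen.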

Additional observations from a re-analysis of the deposited data

How the results depend on the processing

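No paired analysis was possible because the list names the replicates only by order and holds no value of Input. Of 127 alternatives, 75 planned and 9 added ones kept the direction and the side of the threshold or, for 2 of them, counts of 741 and 1238 peaks, stayed within 1.5 times the 909. The cause of the changes below was not tested, except that stricter limits keep fewer peaks by construction. At a global IDR of 0.05, 22 peaks remained, 7 at 0.01, and 523 within 1000 bp of the TSS. With each replicate alone, the strength difference ran from 2.71 to 5.73 points against downstream peaks, from -4.61 to 2.32 against peaks over the TSS and from -7.31 to -3.90 against 3 to 20 kb, and the width difference against the last from -7.03 to -1.77. The summit-to-flank ratios then ran from 0.714 to 1.33 (CArG), 0.799 to 0.880 (CCAAT), 0.887 to 1.18 (GC box), 0.994 to 1.13 (RBPJ) and 0.997 to 1.13 (TTTCAT or TTTCCT).

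Within 1 kb, strength differed by 4.61 points from downstream and by -2.995 from TSS peaks, and width by -8.50 from 3 to 20 kb; with 1 peak per gene these were 4.33, -2.74 and -5.49. Without start sites inside genes, strength differed by 4.18 (downstream), -0.292 (TSS) and -5.91 (3 to 20 kb), AP-1 by 2.96 and TEAD by 1.45 from TSS peaks, TEAD by -1.19 (downstream) and -1.86 (3 to 20 kb), and GC content by 1.83 and CpG by 0.0439 from downstream peaks. In 50 bp windows AP-1 differed by 1.18 from TSS peaks, TEAD by -0.0933 from 3 to 20 kb, GC content by -5.82 and CpG by -4.08 from downstream peaks, and the ratios were 0.978 (TTTCAT or TTTCCT) and 0.815 (CCAAT). In 200 bp windows AP-1 differed by 5.05 and TEAD by -1.16 from downstream peaks and TEAD by -3.53 from 3 to 20 kb (adjusted p = 0.0167, exact), and the ratios were 1.11 (TTTCAT or TTTCCT) and 1.16 (CArG). With flanks 3000 bp away the ratios were 0.959 (TTTCAT or TTTCCT), 1.86 (CArG) and 1.89 (GC box). The share within 1 kb differed by -9.09 points at a global IDR of 0.05 and by 6.47 from the summit. The depth of the libraries is unknown; heights were recovered in 528 and 600 of the 909 peaks, with medians of 14 and 13 fragments. Calls were lost for strength against downstream peaks (first-listed replicate, within 1 kb, 1 peak per gene, no internal starts), AP-1 against TSS peaks (50 bp, no internal starts), TEAD against TSS peaks (no internal starts), CpG against downstream peaks (50 bp, no internal starts) and CCAAT (50 bp, second-listed replicate). Calls were gained for GC content against downstream peaks (50 bp), and AP-1 against downstream peaks and TTTCAT or TTTCCT (200 bp). With the direction turned, calls were also gained for the GC box (flanks 3000 bp away) and TEAD against 3 to 20 kb (200 bp). The share within 1 kb, and strength and width against TSS peaks and 3 to 20 kb, are bound to the choice of peaks by distance, so their values here are a description.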
